A study of Homo sapiens with 24 samples.

Results

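Of the 58051 genes in the count tables, those examined here were 9 noncoding RNA genes that carry small nucleolar RNAs (snoRNAs) in their introns. They were GAS5, SNHG1, SNHG5, SNHG8, SNHG12, SNHG15, SNHG16, ZFAS1 and EPB41L4A-AS1, taken by symbol, and all 9 were found in both tables and passed the filter on low counts in every fit. The cells were SW620 (COAD, colon adenocarcinoma), BxPC-3 (PAAD, pancreatic adenocarcinoma), LNCaP (PRAD, prostate adenocarcinoma) and HCC-70 (TNBC, triple negative breast cancer), each an established line. In each line 3 libraries from untreated control cells were compared with 3 from cells given Ocoxin for 48 h, so that there were 8 groups and 24 libraries. Ocoxin is an oral supplement in which vitamins, minerals and amino acids are combined with extracts of plants, among them green tea. It was diluted 1:700 for COAD and TNBC, 1:500 for PAAD and 1:50 for PRAD, in medium with 1% serum. Only COAD and TNBC thus shared a dilution, and elsewhere line and dilution cannot be told apart. Per the study's methods each dilution was about the IC50 of its line, the dose that lowers viability by 50%. RNA was taken from the cells that still adhered. Each cancer type was represented by 1 line, and the labels do not say whether the 3 libraries of a group came from separate cultures, so p-values measure the spread between these libraries, which may be technical.

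A snoRNA guides the chemical modification of ribosomal RNA or other RNA. Its host transcript is spliced, the snoRNA is trimmed out of the excised intron, and the joined exons leave the nucleus as an RNA whose reading frames are short. Ribosomes that enter such frames stop early, and the spliced RNA is then removed by nonsense-mediated decay (NMD), the surveillance pathway built on UPF1 and the SMG proteins. For this reason spliced host transcripts such as GAS5 are known to accumulate when translation or NMD is blocked. Several hosts begin, like ribosomal protein mRNAs, with a pyrimidine tract (5′TOP) through which growth signals control translation. The libraries measured RNA level only, and neither decay rate nor translation was measured. In bulk RNA a change in the number of cells that express a gene and a change in RNA per cell cannot be told apart.

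The bases around the RefSeq start are shown for 5 of the hosts. A 5′TOP start is the sequence feature that some hosts share with ribosomal protein genes. Each window below holds 10 bases before and 30 bases from the RefSeq start (GRCh38.p14, strand of the gene), and capitals mark the run of C and T that begins at a start base C. SNHG5 lies at chr6:85678704-85678743 on the minus strand, ZFAS1 at chr20:49278632-49278671 on the plus strand, SNHG12 at chr1:28581844-28581883 on the minus strand, SNHG1 at chr11:62855856-62855895 on the minus strand and GAS5 at chr1:173869016-173869055 on the minus strand.
SNHG5: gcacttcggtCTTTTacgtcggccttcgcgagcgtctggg
ZFAS1: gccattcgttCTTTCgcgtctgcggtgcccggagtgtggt
SNHG12: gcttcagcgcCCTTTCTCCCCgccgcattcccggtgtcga
SNHG1: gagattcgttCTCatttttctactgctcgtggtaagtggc
GAS5: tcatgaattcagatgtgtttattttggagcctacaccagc
A start base C followed by at least 4 further C or T bases was found in 3 of the 8 hosts with a RefSeq entry, namely SNHG5, ZFAS1 and SNHG12. The same motif, read on the strand of the gene, was present at 4.07% of all 35116 RefSeq starts, at 46 of 77 ribosomal protein genes (59.7%) and at 4 of 15 other noncoding hosts. RefSeq starts need not be the starts used in these cells. The start of GAS5 lay 163 bases outside its gene model in the count table. That of ZFAS1 lay 464 bases and that of SNHG12 1110 bases inside the model. A window without the motif therefore does not show that a host, GAS5 among them, lacks a 5′TOP start.

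The gene models are those of the count tables (hg38). GAS5 (ENSG00000234741) spans chr1:173863900-173868882, SNHG1 (ENSG00000255717) chr11:62851988-62855914, SNHG5 (ENSG00000203875) chr6:85660950-85678736, SNHG15 (ENSG00000232956) chr7:44983023-44986961 and SNHG12 (ENSG00000197989) chr1:28578538-28582983, all on the minus strand. On the plus strand lie SNHG8 (ENSG00000269893) at chr4:118278709-118279823, SNHG16 (ENSG00000163597) at chr17:76557766-76565348, ZFAS1 (ENSG00000177410) at chr20:49278178-49295738 and EPB41L4A-AS1 (ENSG00000224032) at chr5:112160526-112164276. Exonic length ranged from 923 bases for SNHG8 to 5362 bases for SNHG16. Reads on bases shared by 2 genes had been left out of both, and reads had been counted without regard to strand. Of the exonic bases of EPB41L4A-AS1, 49.6% were shared with the coding gene EPB41L4A on the other strand. ZFAS1 shared 46.9% of its exonic bases with other genes, ZNFX1 among them. For SNHG1, SNHG8 and SNHG12 the shared part was 15.3%, 14.2% and 12.1%, and for the others it was under 4%. Levels per kilobase (kb) below are therefore per kb of unshared exon.

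Library totals ran from 9063968 to 9520969 counts in PRAD and from 25160757 to 39009959 in the other 3 lines, and a host had between 120 and 6812 counts in a library. In COAD the totals ran from 25160757 to 29670036 with Ocoxin and from 31265452 to 34397801 in controls. Depth and treatment therefore cannot be told apart in COAD beyond the scaling to library size. The PRAD libraries stood in a separate table counted with another setting, so PRAD levels are given beside, and not tested against, those of the other lines. The highest count of any gene per exonic base lay between 0.782 and 0.995 in PRAD libraries. In the other lines it lay between 34.1 and 48.97. PRAD levels, ranks and fold changes of short or abundant genes may be held down by this ceiling. Its part in PRAD levels was not tested. Of 6 markers fixed per line, 6 were present at 1 CPM (the count scaled to library size) or more in all LNCaP libraries, 6 in BxPC-3, 5 in HCC-70 and 3 in SW620, where CDX1, GPA33 and LGALS4 stayed under 1 CPM. By this measure BxPC-3 and HCC-70 were not separated. All 6 BxPC-3 markers were also present in every HCC-70 library, and 5 HCC-70 markers in every BxPC-3 library. Of the 6 LNCaP markers, 4 were present in every COAD library, 4 in TNBC and 3 in PAAD. ESR1, the estrogen receptor gene, reached 8.18 CPM in HCC-70 libraries while PGR was under 1 CPM. Of 9 markers of stromal and blood cells, 3 were at 1 CPM or more in every COAD library, 4 in PAAD, 3 in PRAD and 1 in TNBC. In PRAD the fibroblast gene COL1A1 lay between 46.5 and 65.4 CPM and the endothelial gene VWF between 42.1 and 82.5 CPM. COL1A1 lay between 6.18 and 18.4 CPM in the other lines, and the T cell gene CD3E between 1.66 and 2.88 CPM in PAAD. PTPRC, CD68 and HBB of blood cells were under 1 CPM in all 24 libraries. The part of these markers in the results was not tested.

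In the untreated cells the hosts were among the more abundant long noncoding RNAs (lncRNAs), and the mean of each of the 9 was lowest in TNBC among COAD, PAAD and TNBC, although SNHG12 did not differ between PAAD and TNBC beyond its spread. Ranked per kb of total exon, SNHG5 was the 3rd and SNHG1 the 5th of 6276 lncRNA genes with counts in COAD, and SNHG8 was the 8th of 6422 in PRAD. The lowest rank of a host was that of EPB41L4A-AS1 in TNBC, at 829 of 5759. COAD differed from PAAD at 9 of 9 hosts (78.6% of all 19930 genes tested differed) and from TNBC at 9 of 9 (82.8% of genes), and PAAD differed from TNBC at 8 of 9 (77.1% of genes), with edgeR's quasi-likelihood test and Benjamini-Hochberg adjusted p under 0.05. These counts lie near the background, since most genes differ between cell lines. The sizes of the differences are therefore given host by host.

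SNHG5, the host of the SNORD50 snoRNAs, showed the widest span. Its level in control libraries was 52.8 ± 4.34 CPM per kb (SD, n = 3) in COAD, 35.8 ± 2.85 in PAAD and 2.52 ± 0.177 in TNBC, and 10.4 ± 0.424 in PRAD. COAD thus exceeded TNBC by 4.39 on the log2 scale (SE 0.0863, edgeR adjusted p 1.35e-21), which is 21-fold, and PAAD exceeded TNBC 14.2-fold. No libraries of these groups overlapped. EPB41L4A-AS1, the host of SNORA13, was the next widest, with 16.6 ± 0.126 CPM per kb in COAD, 6.97 ± 0.691 in PAAD, 2.04 ± 0.0969 in TNBC and 17.3 ± 1.45 in PRAD. The difference of COAD from TNBC was 3.02 on the log2 scale (SE 0.106, edgeR adjusted p 4.37e-17), or 8.11-fold.

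SNHG1, which carries SNORD22 and the SNORD25 to SNORD31 series, led the hosts in COAD per kb of unshared exon, and SNHG5 did per kb of total exon. It reached 54.8 ± 2.47 CPM per kb there, against 32.1 ± 0.864 in PAAD, 12.3 ± 0.142 in TNBC and 32.3 ± 0.688 in PRAD. The log2 difference of COAD from TNBC was 2.16 (SE 0.0577, edgeR adjusted p 3.36e-19). ZFAS1, the host of the SNORD12 family, was close in COAD (33.1 ± 1.2 CPM per kb) and PAAD (37.2 ± 1.56), lower in TNBC (11.3 ± 0.687) and at 21.8 ± 1.55 in PRAD. PAAD exceeded TNBC 3.28-fold. The small excess of PAAD over COAD (log2 difference of COAD from PAAD −0.17, SE 0.0709, edgeR adjusted p 0.0374) was lost without COAD control replicate 1 (adjusted p 0.0637), COAD control replicate 2 (0.158) or PAAD control replicate 1 (0.126), and with the length and GC trend removed (log2 difference −0.10, adjusted p 0.141).

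SNHG8, the short host of SNORA24, was the top host per kb of unshared exon in PAAD (37.4 ± 3 CPM per kb) and PRAD (52.7 ± 3.22), with 26.9 ± 1.13 in COAD and 14.2 ± 0.91 in TNBC. GAS5, the growth arrest-specific host of many box C/D snoRNAs, varied less. It was at 26.3 ± 0.663 CPM per kb in COAD, 19 ± 0.507 in PAAD, 15 ± 0.382 in TNBC and 36.8 ± 1.51 in PRAD, and was the top host of TNBC, where its libraries overlapped those of SNHG8. The log2 difference of PAAD from TNBC was 0.34 for GAS5 (SE 0.0575, edgeR adjusted p 1.28e-05). When each library was corrected for a trend with length and GC content, that difference was no longer called (edgeR adjusted p 0.435). SNHG16, the host of the SNORD1 family, and SNHG15, the host of SNORA9, exceeded TNBC 2.13-fold and 2.36-fold in COAD. SNHG12, the host of SNORA16A, SNORA44, SNORA61 and SNORD99, was nearly level. It lay at 7.32 ± 0.184 CPM per kb in TNBC, 7.65 ± 0.416 in PAAD, 8.86 ± 0.586 in COAD and 11.3 ± 0.621 in PRAD, and PAAD and TNBC differed by 0.06 on the log2 scale (95% interval −0.09 to 0.22). Its call between COAD and PAAD (log2 difference 0.21, edgeR adjusted p 0.02) was lost without COAD control replicate 2 (0.0983) and without PAAD control replicate 1 (0.0962), with DESeq2's size factors (0.051) and with no filter on low counts (0.0542).

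Within a line, per kb of unshared exon, the order of the hosts differed. In COAD SNHG1 and SNHG5 came first with overlapping libraries, and ZFAS1 followed below both. In PAAD SNHG8, ZFAS1 and SNHG5 led, of which SNHG8 overlapped ZFAS1 and ZFAS1 overlapped SNHG5. In PRAD SNHG8, GAS5, SNHG1 and SNHG15 stood in this order without overlap, and SNHG5 came last with libraries that overlapped those of SNHG12. In TNBC SNHG5 and EPB41L4A-AS1 were the lowest. The order changed per kb of total exon. SNHG5 then led SNHG1 in COAD (51.5 against 46.4 CPM per kb). SNHG5 (34.9), SNHG8 (32.1) and SNHG1 (27.2) led in PAAD, with ZFAS1 the 4th (19.7). EPB41L4A-AS1 was the lowest in PRAD (8.7), and ZFAS1 moved from 4th to 6th in TNBC.

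**Figure D1:**
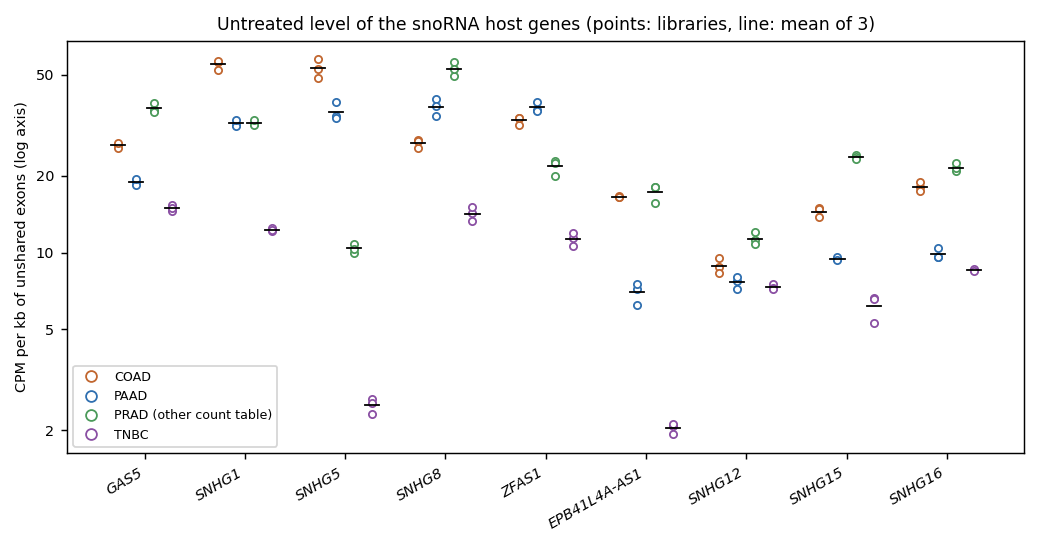
Level of each host in the control libraries of the 4 cell lines, in CPM per kb of unshared exon on a log axis, with 1 point per library and a line at the mean of 3. SNHG5 ran from 2.52 in TNBC to 52.8 in COAD, while SNHG12 lay between 7.32 and 11.3 in all lines. PRAD was counted in another table.

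The coding gene EPB41L4A, which overlaps EPB41L4A-AS1 from the other strand, had the opposite order among COAD, PAAD and TNBC. In control libraries, in CPM scaled within each line, EPB41L4A was at 1.46 ± 0.252 (SD, n = 3) in COAD, 0.833 ± 0.445 in PRAD, 11.2 ± 1.62 in PAAD and 31.1 ± 3.2 in TNBC. EPB41L4A-AS1 on the same scale was at 30.8 ± 0.494, 29.1 ± 2.44, 11 ± 1.05 and 3.41 ± 0.162 in these lines. COAD was below TNBC by 4.56 on the log2 scale for EPB41L4A (log2 difference −4.56, SE 0.145, edgeR adjusted p 7.22e-18) and above it for the antisense host. Since strand was not used, reads counted in the unshared exons of 1 gene may stem from unspliced or unannotated RNA of the other. ZNFX1, the coding neighbour of ZFAS1, was at 277 ± 16 CPM in PAAD and 58 ± 4.17 CPM in COAD (log2 difference of COAD from PAAD −2.49, edgeR adjusted p 8.82e-20), between which ZFAS1 differed 1.12-fold.

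**Figure D2:**
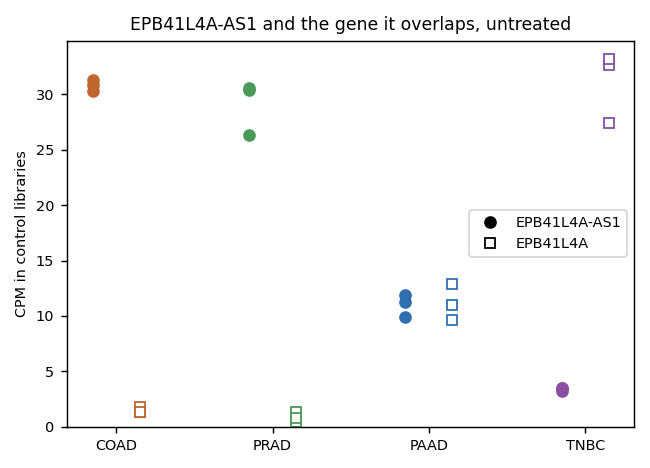
CPM of EPB41L4A-AS1 (filled circles) and of the overlapping coding gene EPB41L4A (open squares) in the 3 control libraries of each line. EPB41L4A-AS1 was at 30.8 in COAD and 3.41 in TNBC, and EPB41L4A at 1.46 in COAD and 31.1 in TNBC. CPM is not scaled to length, so each gene is compared between lines only.

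With Ocoxin 2 hosts rose in TNBC, GAS5 and SNHG1, and 2 fell in PRAD, SNHG1 and SNHG15, while none of the 9 passed the test in COAD or PAAD. Across all genes tested the share that passed was 21% in TNBC (9.65% higher), 2.98% in PRAD (0.58% lower), 2.55% in COAD and 8.33% in PAAD. All changes were small, from −0.25 to 0.43 on the log2 scale over the 36 values. The median over the 9 hosts was 0.06 in TNBC, −0.13 in PRAD, 0.03 in COAD and −0.03 in PAAD, beside medians over all genes of 0.01, 0.01, −0.01 and 0.

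**Figure D3:**
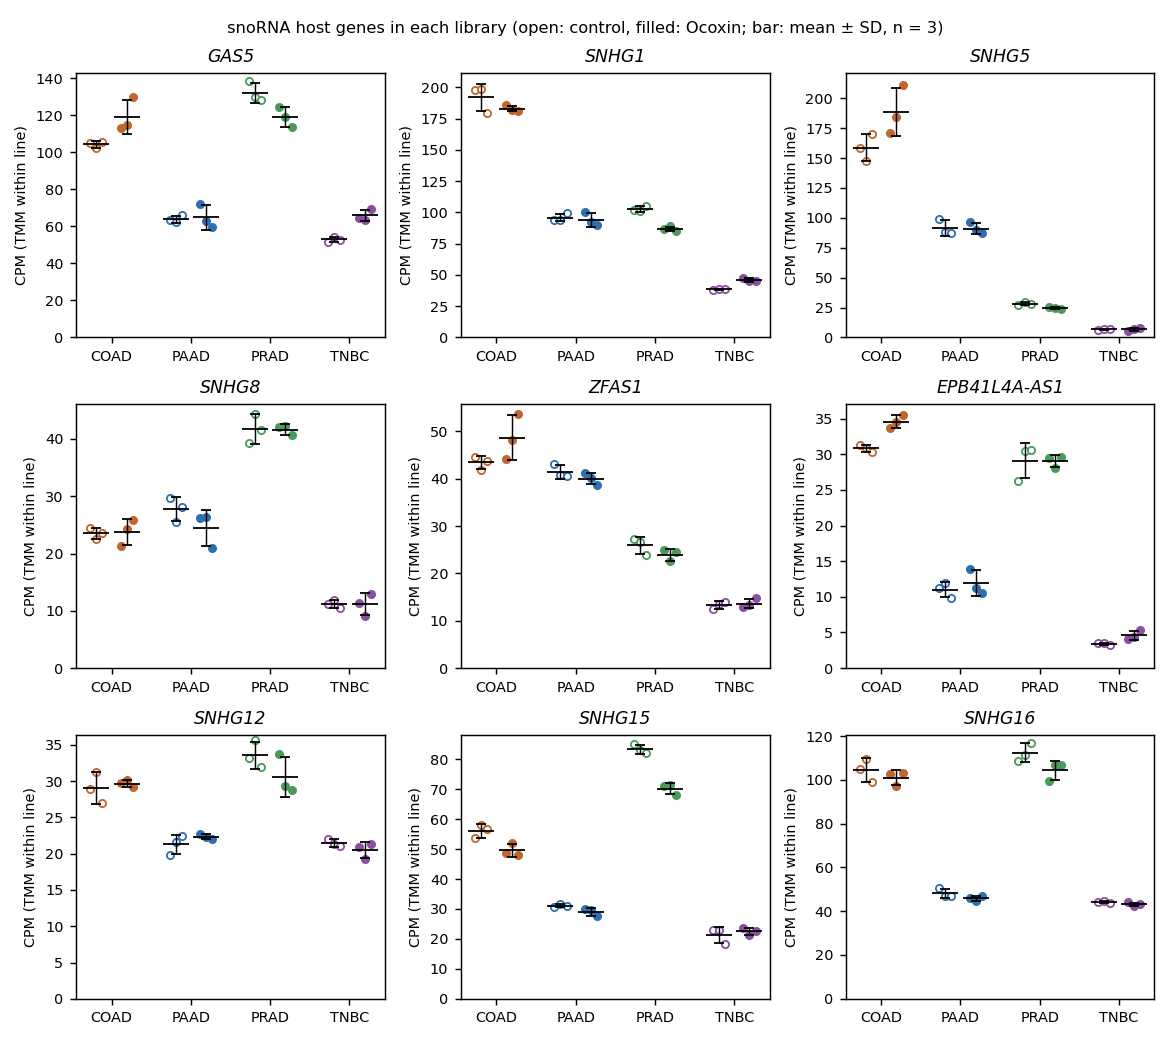
CPM of each host in every library, with control libraries as open and Ocoxin libraries as filled points and the mean ± SD (n = 3) as bars, scaled within each line. GAS5 and SNHG1 were higher in all 3 Ocoxin libraries of TNBC than in its controls, and SNHG1 and SNHG15 lower in all 3 of PRAD.

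GAS5 in TNBC stood at 51.8, 54.5 and 52.9 CPM in the control libraries and at 64.8, 63.7 and 69.4 CPM in the Ocoxin libraries. The groups did not overlap, and every Ocoxin library was above every control. The log2 fold change was 0.31 (SE 0.0502, edgeR adjusted p 0.00102), a rise of 24.3%, and the call held when any 1 of the 6 libraries was left out. The adjacent gene ZBTB37, which begins beside GAS5 on the other strand and shares no exon with it, also rose in TNBC by 0.38 on the log2 scale (edgeR adjusted p 0.00142), from 21.1 ± 1.01 to 27.5 ± 0.956 CPM.

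In COAD GAS5 was at 105.1, 102.3 and 105.4 CPM in controls and at 112.9, 115 and 129.7 CPM with Ocoxin, again without overlap. Its log2 fold change of 0.19 did not pass (SE 0.0559, edgeR adjusted p 0.0712), but it did when COAD Ocoxin replicate 1 was left out (adjusted p 0.0228). In PRAD the control libraries held 138.4, 130 and 128.3 CPM and the Ocoxin libraries 124.6, 119.3 and 113.6 CPM. All Ocoxin libraries were thus below the controls, with a log2 fold change of −0.15 (SE 0.0492, edgeR adjusted p 0.144), and with the replicate number as a block GAS5 was called lower (edgeR adjusted p 0.047, with 8.5% of all genes called). In PAAD the groups overlapped, with 63.4, 62.2 and 66 CPM in controls and 72.3, 62.8 and 59.7 CPM with Ocoxin.

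SNHG1 in TNBC was at 38.3, 39.2 and 38.5 CPM in controls and 47.9, 44.9 and 45.4 CPM with Ocoxin. The groups did not overlap and the log2 fold change was 0.25 (SE 0.0506, edgeR adjusted p 0.00387), a rise of 19.3% that was called whichever of the 6 libraries was left out. In PRAD SNHG1 moved the other way, from 101.8, 100.8 and 105 CPM to 86.6, 88.8 and 85.2 CPM. All 3 Ocoxin libraries were below all controls, with a log2 fold change of −0.24 (SE 0.0413, edgeR adjusted p 0.0302). That call was lost when any 1 of the 6 PRAD libraries was left out, where adjusted p ran from 0.0579 to 0.118. Its log2 fold change stayed between −0.27 and −0.23 in these fits, in which 0.0173% to 2.28% of all genes were called. In COAD and PAAD the SNHG1 groups overlapped, with log2 fold changes of −0.07 (95% interval −0.17 to 0.03) and −0.03 (−0.15 to 0.09).

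SNHG15 was lower in PRAD, where the controls held 84.9, 83.2 and 82 CPM and the Ocoxin libraries 71.2, 71.2 and 68.1 CPM. The groups were well apart, the log2 fold change was −0.25 (SE 0.0447, edgeR adjusted p 0.0327), and expression fell by 15.8%. This call too was lost without any 1 of the 6 PRAD libraries (adjusted p 0.0638 to 0.131), where the log2 fold change stayed between −0.27 and −0.23. DESeq2 gave an adjusted p of 0.0575. In COAD SNHG15 was at 53.6, 58.1 and 56.8 CPM in controls and 48.7, 52 and 48.1 CPM with Ocoxin, without overlap and without passing (log2 fold change −0.18, SE 0.0616, edgeR adjusted p 0.131). Its values were −0.10 in PAAD and 0.07 in TNBC on the log2 scale, neither past the threshold.

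SNHG5 was at 158.8, 147.2 and 169.9 CPM in the COAD controls and 170.7, 184.1 and 210.7 CPM in the Ocoxin libraries. The lowest Ocoxin library lay just above the highest control, and the log2 fold change of 0.25 did not pass (SE 0.0737, edgeR adjusted p 0.107). It was called when COAD Ocoxin replicate 1 (adjusted p 0.00445) or COAD control replicate 3 (0.0148) was left out, and by DESeq2 (adjusted p 0.0289). In PRAD SNHG5 had 27.1, 29.5 and 28.2 CPM in controls and 25.8, 24.6 and 23.7 CPM with Ocoxin, a log2 fold change of −0.20 (SE 0.076, edgeR adjusted p 0.195). ZFAS1 showed 0.16 in COAD (SE 0.0707, edgeR adjusted p 0.257), and its PAAD, PRAD and TNBC values lay between −0.11 and 0.03.

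EPB41L4A-AS1 had the largest value of any host, 0.43 on the log2 scale in TNBC (SE 0.144), which missed the threshold (edgeR adjusted p 0.0518). Its control libraries held 3.48, 3.52 and 3.22 CPM, and its Ocoxin libraries 4.06, 4.39 and 5.3 CPM, which did not overlap. With the replicate number as a block it was called (edgeR adjusted p 0.0149, with 33.9% of all genes called). It was also called with a filter of at least 10 counts in every library (adjusted p 0.048), with the length and GC trend removed (0.0437, and 0.0183 with the block) and with all 24 libraries in one fit (0.0239). These were also the lowest counts of any host, 120 to 205 reads a library. In the other lines its values were 0.16 in COAD, 0.12 in PAAD and 0 in PRAD. SNHG8, SNHG12 and SNHG16 passed in no line, with log2 fold changes between −0.18 (SNHG8 in PAAD, SE 0.096) and 0.07 (SNHG12 in PAAD).

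Over the 9 hosts the control and Ocoxin libraries did not overlap at 4 in COAD (20.6% of all genes), at 1 in PAAD (27.5%), at 5 in PRAD (27.6%) and at 3 in TNBC (38.1%). All 9 PRAD values were below 0, though those of SNHG8 and EPB41L4A-AS1 were within 0.01 of it and turned positive under other settings. An unadjusted p under 0.05 was reached by 5 hosts in COAD, 4 in PRAD, 3 in TNBC and 0 in PAAD. Of all genes tested, 16% reached it in COAD, 20.8% in PRAD, 33.6% in TNBC and 22.8% in PAAD. DESeq2 called 1 host in COAD and 0 in PAAD.

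**Figure D4:**
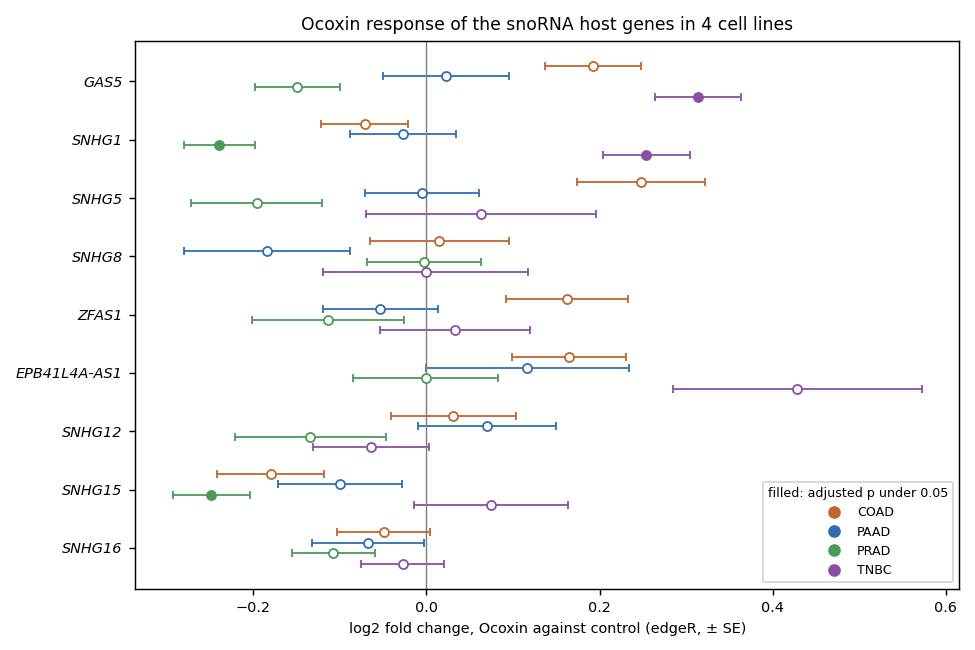
Log2 fold change of each host, Ocoxin against control, with its SE from edgeR, in the 4 cell lines. Filled points passed an adjusted p of 0.05, namely GAS5 (0.31) and SNHG1 (0.25) in TNBC and SNHG1 (−0.24) and SNHG15 (−0.25) in PRAD.

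Whether the response itself differed between lines was tested for the 6 pairs of lines. The response of SNHG1 in PRAD was below that in TNBC by a log2 difference of −0.51 (95% interval −0.66 to −0.36, edgeR adjusted p 5.05e-05), and that of GAS5 by −0.48 (−0.66 to −0.31, adjusted p 0.00109). Both held when any 1 of the 12 libraries was left out, and 3.59% of all 24631 genes tested differed between these responses. At the shared dilution, SNHG1 responded less in COAD than in TNBC (log2 difference −0.32, 95% interval −0.47 to −0.17, edgeR adjusted p 0.00694, with 7.85% of all genes), which also held throughout. For GAS5 the same pair of lines differed by −0.12 (95% interval −0.29 to 0.06, adjusted p 0.5), which was not called.

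Among the other pairs, SNHG1 differed between PAAD and TNBC (log2 difference −0.29, edgeR adjusted p 0.0229, 4.56% of all genes), and the call was lost in 6 of 12 fits that left out 1 library, those without PAAD Ocoxin replicate 2 or 3, PAAD control replicate 3, TNBC Ocoxin replicate 1 or TNBC control replicate 1 or 3 (adjusted p up to 0.0869). GAS5 differed between PRAD and COAD (−0.37, edgeR adjusted p 0.0332, 0.832% of all genes). That call was kept in 4 of 12 such fits, those without COAD Ocoxin replicate 1 or 2, COAD control replicate 3 or PRAD Ocoxin replicate 1, and adjusted p reached 0.119 without COAD Ocoxin replicate 3. SNHG5 had the larger difference between PRAD and COAD (−0.48) but missed the threshold (edgeR adjusted p 0.101). It was called by DESeq2 (0.0358), with no filter on low counts (0.00605), with the length and GC trend removed (0.0399), without COAD Ocoxin replicate 1 (0.046) and with the replicate block (0.00379, with 3.03% of all genes called). With the replicate number as a block, GAS5 also differed between PAAD and TNBC (edgeR adjusted p 0.0607 without and 0.00363 with the block), SNHG15 between PRAD and TNBC (0.0601 and 0.0107) and SNHG1 between PRAD and PAAD (0.0652 and 0.0246). The block called 12.5%, 8.87% and 7.87% of all genes in these 3 comparisons, and 3.29% differed between PRAD and PAAD without it. No host differed between COAD and PAAD, where 3.96% of genes did.

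Of 22 snoRNA genes that lie inside these hosts on the same strand, 6 had any count, and the highest was 26 counts for SNORD99 in SNHG12. Reads on snoRNA genes inside host exons were assigned to neither gene and the libraries were made from polyadenylated RNA, so these counts say nothing of mature snoRNA levels. The snoRNAs of GAS5 were not analysed here.

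The other genes of the pathway were described from lists. Of all genes tested 21% passed in TNBC (9.65% higher), 8.33% in PAAD, 2.98% in PRAD and 2.55% in COAD. With the replicate block 33.9% passed in TNBC. Of 16 other noncoding hosts tested in TNBC, 3 rose and 0 fell, with a median log2 fold change of 0.08. They were SNHG4 (0.62, edgeR adjusted p 0.0394, at 1.69 CPM in controls), SNHG3 (0.24, adjusted p 0.0449) and SNHG7 (0.18, adjusted p 0.0343). SNHG3 and SNHG4 overlap the coding genes RCC1 and MATR3, so their counts are uncertain. This list held 0 calls without TNBC Ocoxin replicate 1 or 2, 1 without any 1 of the 3 TNBC controls and 2 without TNBC Ocoxin replicate 3. In COAD 1 of 16 rose, SNHG29 (0.21, adjusted p 0.0413), which was lost without COAD Ocoxin replicate 2 or 3 or COAD control replicate 1 or 2, and in PAAD and PRAD 0 of 17 passed. With the replicate block, which called 23.1% of all genes in PAAD, 3 rose and 1 fell there. Coding hosts went both ways in TNBC, with 4 of 26 higher and 4 lower, among them RABGGTB (0.24) and HSPA8, a constitutive chaperone (−0.23). The number higher was 2 without TNBC Ocoxin replicate 1 or 2 or TNBC control replicate 2, and 6 without TNBC Ocoxin replicate 3.

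NMD factors rose in TNBC at 4 of 15, with 0 lower and a median of 0.10, while 9.65% of all genes tested rose. SMG6, the endonuclease of the pathway, rose by 0.32 on the log2 scale (edgeR adjusted p 0.00196), SMG1, the kinase that phosphorylates UPF1, by 0.26 (adjusted p 0.0064) and the adaptor UPF3B by 0.18 (adjusted p 0.0351). With the replicate block 8 were called higher. In PAAD 2 of 15 rose, SMG9 (0.24) and SMG5 (0.22), and 6 rose and 2 fell with the block. There were 0 without PAAD Ocoxin replicate 1 or 2 or PAAD control replicate 1, and 1 without PAAD control replicate 2. In COAD SMG9 fell (log2 fold change −0.24, edgeR adjusted p 0.0301), which was lost without the same 4 COAD libraries as SNHG29, and in PRAD 0 of 15 passed. Of 9 exon junction and cap-binding genes in TNBC, CASC3 rose (0.25) and 3 fell, among them EIF4A3 (−0.17) and MAGOH (−0.15). The 3 became 0 without TNBC Ocoxin replicate 1 or TNBC control replicate 1, 1 without replicate 2 of either group and 2 without TNBC control replicate 3.

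Coding mRNAs that are used as reporters of NMD, several of which are also induced by the integrated stress response, moved most in PRAD. There 3 of 11 rose and the list median was 0.45. ATF3 rose by 1.10 on the log2 scale (edgeR adjusted p 0.0257), DDIT3 by 0.74 (adjusted p 0.0327) and IFRD1 by 0.53 (adjusted p 0.0231). No gene of this list passed without PRAD Ocoxin replicate 2 or any 1 of the 3 PRAD controls, and 2 passed without PRAD Ocoxin replicate 1. In the fits with no call on this list 0.0173% to 1.04% of all genes passed. In TNBC DDIT3 rose (0.45) while GADD45B (−0.46) and ATF3 (−0.25) fell. The fall of ATF3 was lost without TNBC Ocoxin replicate 2 or TNBC control replicate 1 or 3, and 3 fell without TNBC Ocoxin replicate 3. In COAD and PAAD 0 of 11 passed, and 4 in PAAD were called higher with the block.

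Ribosomal protein mRNAs carry a 5′TOP start, as some of the hosts do. In TNBC, where 21% of all genes passed in either direction, 34 of 77 fell with a median of −0.12, while 1 rose. Among these RPL34 fell by 0.29 on the log2 scale (log2 fold change −0.29, edgeR adjusted p 0.000892). The number that fell was 16 without TNBC Ocoxin replicate 1, 18 without TNBC Ocoxin replicate 2 and 19 without TNBC control replicate 2, and with the block it was 54. In PAAD 8 of 77 fell (median −0.14), and 60 with the block. Leaving out PAAD control replicate 3 gave 35, and leaving out any other PAAD library gave 1 or 2. In COAD 73 of 77 values were above 0 (median 0.10), of which none passed as higher and RPL36A fell (log2 fold change −0.48, edgeR adjusted p 0.0167), again lost without those 4 libraries. Without COAD Ocoxin replicate 1 there were 15 higher and without COAD control replicate 3 there were 9. In PRAD 0 passed (median −0.05). Changes of these short, abundant mRNAs may be held down there by the ceiling of the PRAD counts, which was not tested. Ribosomal protein genes share reads with near-identical processed pseudogenes, and RPL36A overlaps a read-through gene, so their counts are uncertain. Other 5′TOP mRNAs fell in TNBC at 4 of 14, among them EEF1B2 (−0.26), TPT1 (−0.18) and EEF1A1 (−0.11). That number was 1 or 2 when any 1 TNBC library other than Ocoxin replicate 3 was left out, and 7 with the block. Of the 8 core proteins of snoRNA particles 4 fell in TNBC, including NOP10 (−0.24), NHP2 (−0.20) and FBL, the methyltransferase of box C/D particles (−0.15), and 1 or 2 fell without TNBC Ocoxin replicate 2 or TNBC control replicate 1 or 2. In PRAD NOP56 fell (−0.17, edgeR adjusted p 0.0391), a call lost without any 1 of the 6 PRAD libraries. In those fits 0.0173% to 2.28% of all genes passed, against 2.98% before.

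**Figure D5:**
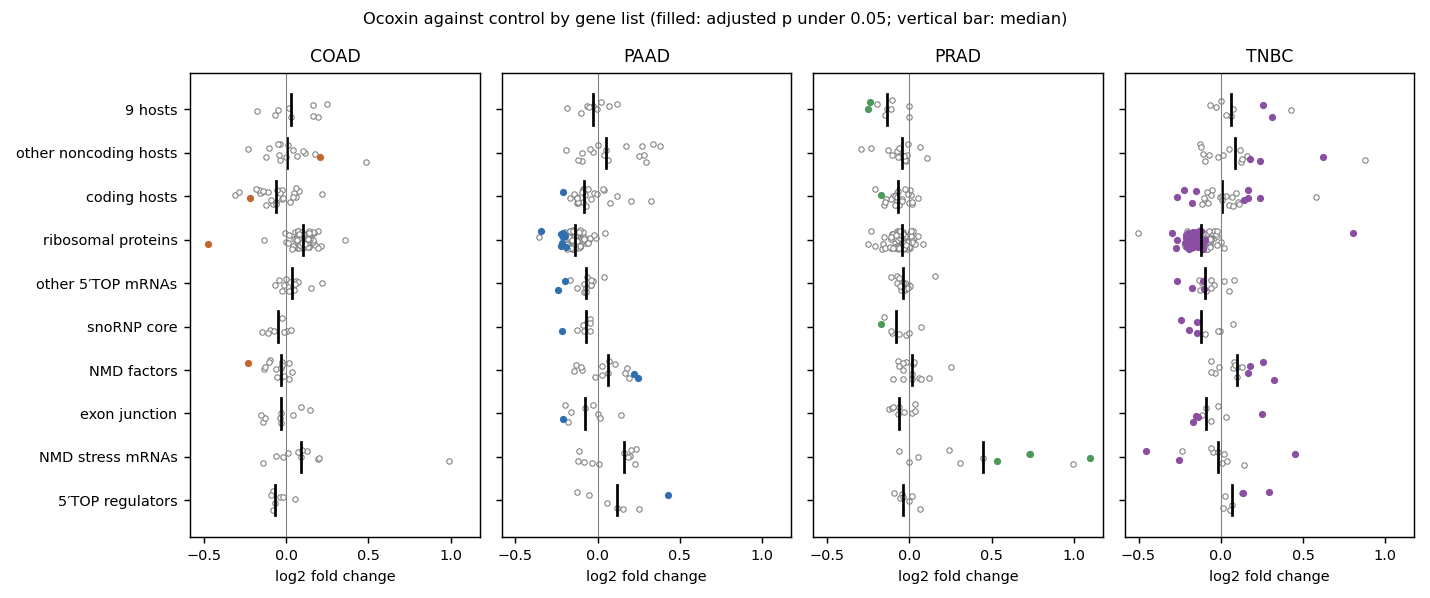
Log2 fold change, Ocoxin against control, of every gene tested in 10 lists, with 1 panel per cell line, filled points past an adjusted p of 0.05 and a vertical bar at the list median. In TNBC the ribosomal proteins lay at a median of −0.12 and the 9 hosts at 0.06, and in PRAD the mRNAs used as NMD reporters lay at 0.45. Height within a row is random.

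The hosts did not vary as 1 group across libraries. With log2 CPM centred on the mean of each line, the 36 pairs of hosts had a median Pearson r of 0.20 over 24 libraries, from −0.15 to 0.80, and 30 pairs were above 0. SNHG5 and ZFAS1 were the closest pair (r = 0.80), and each was the nearest of 13341 genes to the other. Next to ZFAS1 came RPL26 (0.76) and a pseudogene of RPL36A (0.74). The nearest gene to EPB41L4A-AS1 was GDF15 (0.85), to SNHG1 ZMIZ1 (0.82), to GAS5 VPS35L (0.78), to SNHG16 CYTH3 (0.76), to SNHG15 EFTUD2 (0.75), to SNHG8 ECE2 (0.72) and to SNHG12 FGD6 (0.68). These values describe libraries that share treatment, depth and scaling within a line.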

How the data were processed

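Polyadenylated RNA was sequenced with a stranded kit. Per the study's methods and the file headers, the authors used fastp for trimming, STAR for alignment to the hg38 build, Picard for the removal of duplicates, and featureCounts 2.0.3 for unstranded counting over exons. The deposited values are raw counts per gene in 2 tables, of which PRAD was counted without the paired-end option. All per-sample columns were used.

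Hosts were matched by symbol through GENCODE 44 (56948 of 58051 identifiers had a symbol). Each line was fitted alone with edgeR 4.0.16 (R 4.3.3), namely filterByExpr, TMM, and a robust quasi-likelihood F-test, and p-values were adjusted by Benjamini-Hochberg over every gene in the fit, at a threshold of 0.05. Untreated lines were compared over 9 control libraries, and responses by interaction terms over 18 libraries, or 24 where PRAD entered. The 95% intervals use a normal approximation from the SE and are narrower than the F-test implies. That of SNHG16 in PRAD was −0.20 to −0.01, with an unadjusted edgeR p of 0.0559. CPM are TMM-scaled within a line for treatment and over the 9 controls for levels per kb, except PRAD. The fit within a line was tried on simulated PAAD counts, with changes larger than the Ocoxin changes of the hosts in the main fits. Comparisons between lines and the replicate block were not simulated. The coefficient of variation between libraries, from edgeR's common dispersion, was 6.28% to 6.84% per line. The study's methods name DESeq2, run here (1.42.0) as an alternative, with other scaling, filters, a length and GC trend, the replicate block and leaving out single libraries.

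Replicate numbers were checked as pairs by correlating deviations from group means. Over all genes tested the lowest same-number correlation was 0.09 or less in each line. Over genes of mean CPM 10 or more every same-number pair exceeded 0.1 in PAAD, PRAD and TNBC and not in COAD (lowest 0.08). The labels do not state a pairing. Libraries of different number correlated too, in TNBC at 0.35 for control 2 with Ocoxin 1, beside 0.29 for the pair of number 1. In COAD the pair of number 3 reached 0.50. In PAAD, PRAD and TNBC replicate 3 stood apart from 1 and 2, so the check cannot show that 1 pairs with 1 and 2 with 2.

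The hosts and lists were chosen with earlier results of these data known. All hosts are named, and from each other list at most the 3 called genes of largest change per line, overlapping or adjacent genes, and for each host the genes of highest r. Start windows are from RefSeq, where 8 of 9 hosts matched.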

Additional observations from a re-analysis of the deposited data

Results flagged for a closer look

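In all, 5 differences in response between lines passed the test of the difference itself. The response of SNHG1 was lower in PRAD than in TNBC (log2 difference −0.51), lower in COAD than in TNBC (−0.32) and lower in PAAD than in TNBC (−0.29). The response of GAS5 was lower in PRAD than in TNBC (−0.48) and lower in PRAD than in COAD (−0.37). PRAD was given a higher concentration and counted in another table, so for it line, dilution and table cannot be told apart. No group had the 4 libraries needed to look for a single library standing apart.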

How the results depend on the processing

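Counts of hosts called moved as follows. With the replicate block, 3 hosts were called in COAD (GAS5, SNHG5 and SNHG15), where the check of same-number pairs was not met, and 3 each in PRAD and TNBC. The block also raised the share of all genes called, in COAD from 2.55% to 10.9%. Response differences became 1 for COAD and PAAD and for PRAD and PAAD, and 2 for PAAD and TNBC, COAD and TNBC, and PRAD and COAD. DESeq2 gave 1 host in COAD, 1 in PRAD, and for differences 2 for PAAD and TNBC, 2 for PRAD and COAD and 1 for PRAD and PAAD. With no filter on low counts there were 2 hosts in COAD and differences of 0 for PAAD and TNBC and 2 for PRAD and COAD. With the length and GC trend removed there were 2 in COAD (3.68% of all genes), 4 in PRAD (14.5%, against 2.98% before) and 3 in TNBC, and differences of 0 (PAAD and TNBC), 2 (PRAD and COAD), 2 (PRAD and PAAD) and 4 (PRAD and TNBC). The same with the replicate block gave 3 in COAD (14.5% of all genes), 6 in PRAD (31.9%), 3 in TNBC and 2, 2, 4, 5 and 5 differences for PAAD and TNBC, COAD and TNBC, PRAD and COAD, PRAD and PAAD, and PRAD and TNBC. TNBC also had 3 with 10 counts in every library and with all 24 libraries in one fit. Correction of PRAD counts for reads sharing a start gave 1 difference for PRAD and PAAD. SNHG15 was then also called between PRAD and TNBC (adjusted p 0.0433). The same SNHG15 difference was called with 10 counts in every library (0.0404), the replicate block (0.0107) and DESeq2 (0.0239). It was called without TNBC control replicate 1 (0.0381) or 2 (0.0461) as well. A stricter adjusted p of 0.01 left 0 in PRAD. A change of 1.5-fold left 0 in PRAD and TNBC, and one of 2-fold left 1 for untreated COAD and PAAD and 5 for PAAD and TNBC. Leaving out 1 library gave 0 to 2 hosts in COAD, 0 in PRAD in each case, 0 to 2 differences for PAAD and TNBC and 0 to 2 for PRAD and COAD. The cause of these shifts was not tested.

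Signs turned mostly at values near 0. With the length and GC trend removed, without and with the replicate block, SNHG12 in COAD was −0.0054 and −0.0042, SNHG1 in PAAD 0.027 and 0.025, SNHG5 in PAAD 0.069 and 0.070, and the COAD and PAAD difference of EPB41L4A-AS1 −0.019 and −0.017. Without the block, untreated PAAD against TNBC turned to −0.060 for SNHG12 and −0.0075 for SNHG16, which had been called, and SNHG8 in TNBC to 0.0013. With 10 counts in every library, SNHG8 was 0.0024 in PRAD and 0.0013 in TNBC, and EPB41L4A-AS1 in PRAD 0.0046, or 0.00073 with the replicate block. SNHG8 in TNBC was 0.00041 by DESeq2 and 0.00054 with its size factors, and the COAD and TNBC difference of SNHG16 was 0.0118 and 0.0120 by these and 0.0026 with no filter. With 1 library left out the ranges that crossed 0 were, in PAAD, EPB41L4A-AS1 −0.0078 to 0.197, GAS5 −0.061 to 0.081, SNHG1 −0.073 to 0.0081 and SNHG5 −0.046 to 0.057. In COAD they were SNHG12 −0.013 to 0.093 and SNHG8 −0.036 to 0.098, and in PRAD EPB41L4A-AS1 −0.070 to 0.026 and SNHG8 −0.046 to 0.029. In TNBC they were SNHG15 −0.025 to 0.13, SNHG5 −0.059 to 0.191, SNHG8 −0.125 to 0.121 and ZFAS1 −0.029 to 0.072. Differences of COAD from PAAD crossed 0 for EPB41L4A-AS1 (−0.024 to 0.176), SNHG12 (−0.074 to 0.023), SNHG16 (−0.019 to 0.059) and SNHG1 (−0.074 to 0.0056). Those from TNBC did for SNHG16 (−0.043 to 0.015) and SNHG8 (−0.102 to 0.147) in COAD, SNHG16 (−0.065 to 0.0018) and SNHG5 (−0.197 to 0.055) in PAAD, and SNHG8 (−0.145 to 0.111) in PRAD. SNHG8 ranged from −0.125 to 0.0086 for PRAD and COAD. EPB41L4A-AS1 in TNBC rested on the fewest counts, 120 to 205 a library.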
